A study of Mus musculus with 24 samples.

Results

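The genes described here are 7 markers of peripheral neurons and Schwann cells: Phox2a, Th, Tubb3, Stmn2, Prph (Prph1 in the array annotation), Sox10 and S100b. They were picked by name. All 9 array probes that carry these names were taken, of 41174 probes in all, and 8 of the 9 passed the filter on dim probes. Each gene is represented by its brightest kept probe, so the 7 genes are 7 of 24716 genes tested. RNA came from the urogenital sinus (UGS), the embryonic tube of endoderm and mesenchyme that gives rise to the prostate in males. Embryos were of the C57BL/6J strain, and the ducts that join the UGS had been dissected away. Pregnant females received 50 mg/kg of dihydrotestosterone (DHT), a potent androgen, or vehicle at 16 days post coitum (dpc), and the UGS of their embryos, all labelled female, was taken after 6 h or 12 h. Untreated male and female littermates were collected at 17.5 dpc. RNA of several embryos was pooled, and each pool was hybridised against its partner pool on 2 dye-swapped 2-colour arrays. This gave 4 pairs of DHT and vehicle pools at 6 h, 3 pairs at 12 h and 5 pairs of male and female pools, on 24 arrays. The pair of pools is the replicate.

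The UGS is supplied by the pelvic ganglia, which lie beside it and hold noradrenergic and cholinergic neurons together with their satellite glia and Schwann cells. These cells descend from the neural crest. Phox2a is a homeodomain transcription factor of autonomic neurons, and Th makes tyrosine hydroxylase, the rate-limiting enzyme of catecholamine synthesis. Tubb3 is the neuronal beta-tubulin, Stmn2 a microtubule-regulating phosphoprotein of growing axons, and Prph the intermediate filament protein of peripheral neurons. Sox10 is the transcription factor of neural crest glia, which melanocytes also make, and S100b is a calcium-binding protein of Schwann cells that cartilage also makes. In RNA from whole tissue, fewer cells of a type and less RNA per cell cannot be told apart, and any level below may reflect how much ganglion was kept at dissection as well as what its cells transcribed; the share of ganglion was not measured.

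RefSeq promoter sequences of build GRCm38.p6 were at hand for 5 of the 7 genes. Those of Th, Prph and Tubb3 are shown because the pair ratios of these 3 neuronal genes correlated and the genes belong to different functions, transmitter synthesis and the cytoskeleton. Over the 12 pairs, with the mean of each comparison subtracted, r between them was 0.852 to 0.963. Their mean ratios at 12 h went opposite ways, with Th above 0 and Prph and Tubb3 below 0 in all 3 pairs. Each sequence is the 250 bases before the annotated start of transcription, 5′ to 3′ on the strand of the gene, and capitals mark a match to a motif that was searched on both strands.
Th: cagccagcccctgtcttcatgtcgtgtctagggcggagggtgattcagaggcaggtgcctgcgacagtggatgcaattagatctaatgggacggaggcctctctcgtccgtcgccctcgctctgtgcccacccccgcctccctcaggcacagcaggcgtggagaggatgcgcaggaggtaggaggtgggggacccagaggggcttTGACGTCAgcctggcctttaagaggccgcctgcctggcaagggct
Prph: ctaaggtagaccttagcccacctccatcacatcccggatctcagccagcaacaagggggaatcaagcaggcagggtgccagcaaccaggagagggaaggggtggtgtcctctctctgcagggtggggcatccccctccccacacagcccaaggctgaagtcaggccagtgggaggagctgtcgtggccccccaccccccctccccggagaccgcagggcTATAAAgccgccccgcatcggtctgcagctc
Tubb3: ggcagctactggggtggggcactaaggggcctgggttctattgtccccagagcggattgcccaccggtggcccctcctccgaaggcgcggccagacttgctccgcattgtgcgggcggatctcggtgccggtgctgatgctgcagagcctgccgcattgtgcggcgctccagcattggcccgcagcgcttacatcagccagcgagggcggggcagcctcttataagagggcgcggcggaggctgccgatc
The Th stretch lies at chr7:142899996-142900245 on the minus strand, the Prph stretch at chr15:99054924-99055173 and the Tubb3 stretch at chr8:123411303-123411552, both on the plus strand. The motifs were the cyclic AMP response element TGACGTCA, the E-box CAGCTG, the TATA box TATAAA, the androgen receptor core AGAACA, the Sox core ACAAAG and the homeodomain core TAATTA, none of which overlapped another match here. Th held the cyclic AMP response element, from base −45 to −38 before the start, which 1.55% of 32851 promoters of the same length hold. Prph held the TATA box, from −31 to −26, which 12.4% hold. Tubb3 held no match, and neither did Phox2a or S100b. The other shares were 13.0% for the E-box, 16.1% for the androgen receptor core, 16.5% for the Sox core and 4.84% for the homeodomain core.

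The median spot signal per array was 102.3 to 151.1 in Cy3 and 98.14 to 146.2 in Cy5. Over the brightest kept probe of each gene, the 2 dye-swapped arrays of a pair correlated at r = 0.39 to 0.763 between the sexes. The values were −0.5 to −0.0488 at 6 h and −0.197 to 0.163 at 12 h, across probes that are not independent replicates. Both arrays of a pair were turned by the dyes in the labels, and a strong signal kept its sign on both: the Y-linked gene Eif2s3y read −2.62 and −2.14, −1.45 and −1.04, and −1.77 and −1.38 on the 2 arrays of pairs 2, 3 and 4. Those values go against a label. The vehicle pools 2, 3 and 4 at 6 h, labelled female, had Eif2s3y log2 intensities of 8.65, 7.64 and 7.80, where female pools at 17.5 dpc had 5.99 to 6.37 and male pools 8.51 to 9.01. The vehicle pool of pair 1 had 6.02. The DHT pools of pairs 2, 3 and 4 had 6.27, 6.40 and 6.23. Xist was at 6.42 to 6.97 in male pools and at 11.96 to 12.60 in female pools at 17.5 dpc. Vehicle pools 2, 3 and 4 at 6 h had Xist at 10.29, 11.24 and 11.21, so they held Xist as well as Y-linked RNA. The 6 h ratios of pairs 2 to 4 thus set DHT pools against vehicle pools that carried Y-linked RNA. In these pairs, exposure to DHT and a difference in the sex of the pooled embryos cannot be told apart. All 6 h values below, given as DHT over vehicle, carry this limit. Of 13 epithelial markers, all were well above background on all 24 arrays.

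The brightest probes of all 7 genes were well above background in 48 of 48 channels, and none was saturated. The second Sox10 probe was well above background in 0 of 48 channels, and its pair ratios lay between −0.063 and 0.038. The second Stmn2 probe was so in 32 of 48, at log2 intensities of 6.03 to 6.50, and it did not follow the bright probe: in the 6 h pair 1 it read −0.019 where the bright probe read 0.89. Stmn2 values below are those of the bright probe, and they rest on 1 array in the 6 h pair 1 and in the 12 h pair 2, since a spot there was marked as an outlier by the scanner software. The Prph value of the male-female pair 1 also rests on 1 array. Where 2 arrays were read, they differed for the 7 genes by at most 0.57 (Prph).

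**Figure D1:**
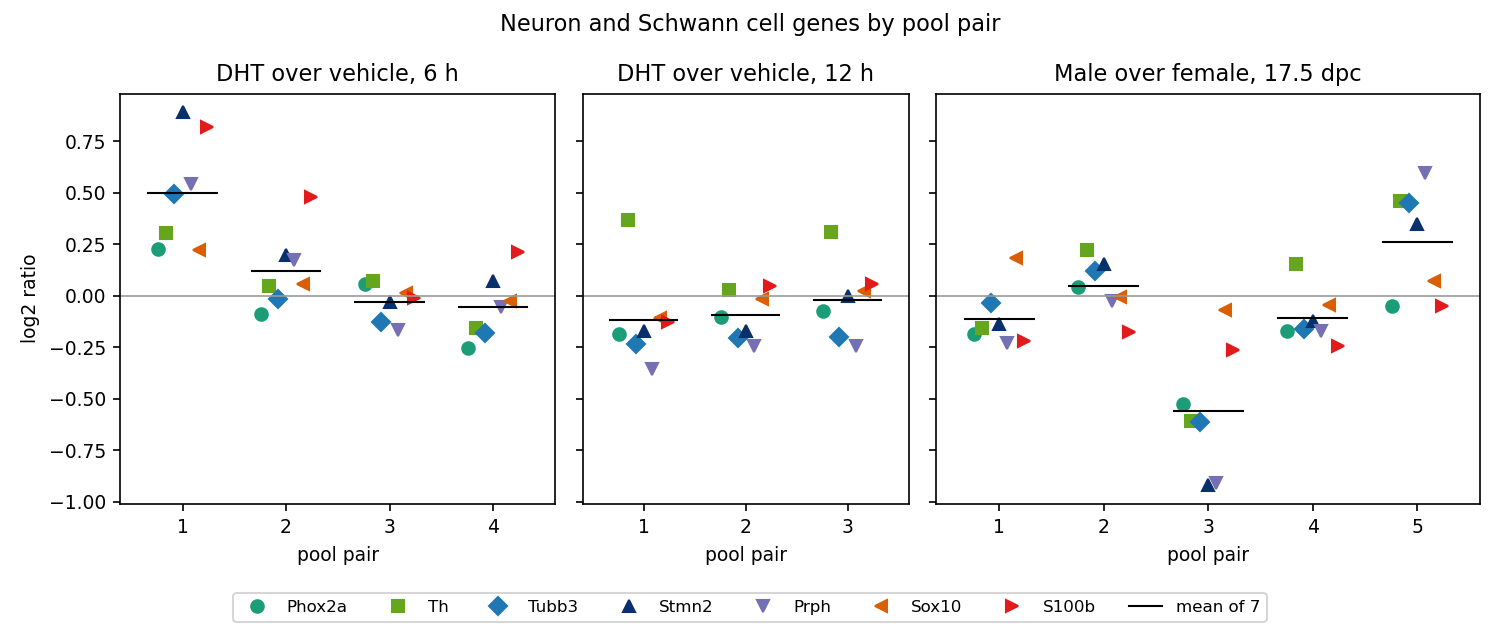
Log2 ratio of each of the 7 genes (points) and their mean (black bars) in each pair of pools, DHT over vehicle at 6 h and 12 h and male over female at 17.5 dpc. The mean was 0.50 in the 6 h pair 1 and −0.56 in the male-female pair 3, and the other 10 pairs lie between these values.

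At 6 h the neuronal genes were high in a single pair. In pair 1 all 7 genes had more RNA in the DHT pool than in the vehicle pool, by a mean log2 ratio of 0.50, and all 13 array readings were positive. In pairs 2, 3 and 4 the mean was 0.12, −0.028 and −0.056, with 5, 3 and 2 of the 7 genes above 0. Over the 4 pairs the mean was 0.13 (SD 0.26), and without pair 1 it was 0.012. Each 6 h value without pair 1, here and below, rests on pairs 2 to 4, whose vehicle pools carried Y-linked RNA.

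Stmn2 had log2 ratios of 0.89, 0.20, −0.029 and 0.071 in pairs 1 to 4, a mean of 0.28 (SD 0.42, n = 4). Prph had 0.54, 0.17, −0.17 and −0.056, a mean of 0.12 (SD 0.31). Tubb3 had 0.49, −0.018, −0.13 and −0.18, a mean of 0.042 (SD 0.31). These 3 cytoskeletal genes were highest in pair 1 and near or below 0 in pairs 3 and 4. Without pair 1, Stmn2 had a mean of 0.079, and Prph and Tubb3 had means of −0.016 and −0.11. The 2 genes of transmitter identity swung less. Th read 0.30, 0.045, 0.071 and −0.16, and Phox2a 0.23, −0.091, 0.058 and −0.25. For both, the 4 pairs lay on either side of 0.

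The glial genes differed from each other. S100b read 0.82, 0.48, −0.013 and 0.21, a mean of 0.37 (SD 0.36, n = 4), or 1.30-fold, with a 95% interval of 0.17 to 0.58. Without pair 1 its mean was 0.23 (adjusted p = 0.352). Sox10 read 0.22, 0.057, 0.012 and −0.025, a mean of 0.067 (SD 0.11). The mean of 4 markers of cartilage, a tissue that also makes S100b, was −0.042, −0.087, 0.0086 and −0.034 in these pairs. This mean joins genes that went opposite ways. Col2a1 read 0.24, 0.16, 0.045 and 0.099, and Sox9 read −0.42, −0.53, −0.053 and −0.25. The part of cartilage in the S100b values was not tested. S100b had the largest mean of the 7 and Sox10 the smallest spread. In limma, with Benjamini-Hochberg adjustment over all 24716 genes, 0 of the 7 passed the threshold of 0.05 at 6 h, where 1.67% of all genes passed. S100b came closest (adjusted p = 0.0696), and it was the 1 member with an unadjusted p under 0.05, where 14.3% of all genes were. It passed in 2 fits that took the 24 arrays one by one, at adjusted p = 0.00423 and 0.00427, and without pair 3 (0.50, adjusted p = 0.025). In the remaining 14 of 17 alternatives it did not pass. Adjusted p for the other 6 genes ran from 0.528 for Stmn2 to 0.982 for Phox2a. The interval for Stmn2, −0.087 to 0.65, leaves room for a fall as well as for a rise to 1.57-fold.

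The pool levels show which partner set the pair 1 values. Vehicle pools 1 to 4 had Stmn2 log2 intensities of 11.03, 11.46, 11.39 and 11.48, and DHT pools 11.92, 11.65, 11.36 and 11.55. For Prph the vehicle pools had 7.54, 7.95, 8.00 and 8.05 and the DHT pools 8.08, 8.13, 7.83 and 8.00. The vehicle pool of pair 1 was the lowest of all 8 pools for both genes, and its partner was the highest for Stmn2 only. That vehicle pool was also the only one at 6 h in which Eif2s3y was not raised. S100b was at 7.96, 8.27, 8.59 and 8.54 in vehicle pools and at 8.78, 8.75, 8.57 and 8.75 in DHT pools. Its DHT pools lay close together while the vehicle pools spread, and the groups overlapped between 8.57 and 8.59.

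**Figure D2:**
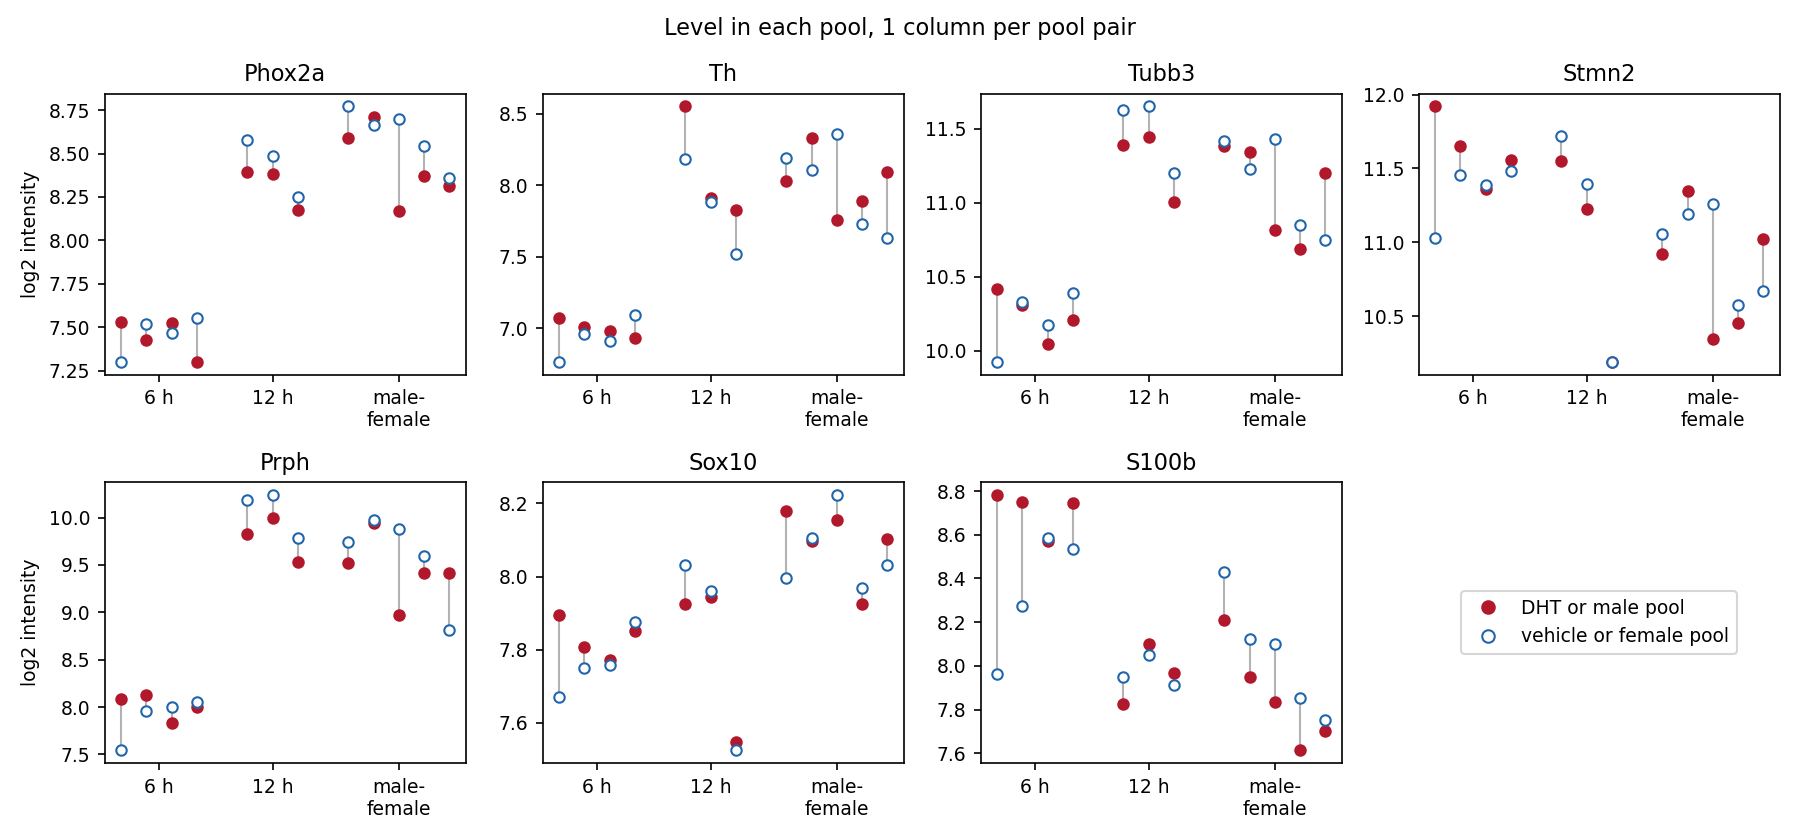
Log2 intensity of the 7 genes in each of the 24 pools, filled for DHT or male pools and open for vehicle or female pools, with a line between the partners of a pair. Each panel has its own axis, since levels of different probes cannot be compared. In Prph the 6 h pools lie between 7.54 and 8.13 and the 12 h pools between 9.54 and 10.24.

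Markers of other tissues moved in the same pair. In the 6 h pair 1 the mean of 13 epithelial markers was −0.59 with 0 of 13 above 0, and that of 9 skeletal muscle markers was −0.45 with 0 of 9 above 0. In pairs 2, 3 and 4 the epithelial means were −0.45, −0.11 and −0.011 and the muscle means −0.28, 0.13 and −0.015. The mean epithelial log2 intensity was 9.11 to 9.28 in DHT pools and 9.29 to 9.70 in vehicle pools, and no marker of either list was undetected. Pair 1 therefore had the highest neuronal and the lowest epithelial and muscle means of the 4, and pair 2, almost as low in epithelium, had a neuronal mean of 0.12. Their part in the 6 h values of the 7 genes was not tested.

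At 12 h the spread between pairs was small and the cytoskeletal genes were all on the low side. Tubb3 read −0.24, −0.21 and −0.20 in the 3 pairs, a mean of −0.21 (SD 0.019, n = 3). Prph read −0.36, −0.24 and −0.245, a mean of −0.28 (SD 0.066), and Phox2a −0.19, −0.10 and −0.076, a mean of −0.12 (SD 0.059). Stmn2 read −0.17, −0.17 and −0.0022. These 4 of the 7 genes were below 0 in all 3 pairs, as were 18.7% of all genes. Th went the other way, at 0.37, 0.027 and 0.31, a mean of 0.23 (SD 0.18). It was the 1 of 7 above 0 in all 3 pairs, as were 16.8% of all genes. Sox10 and S100b lay near 0, at −0.11, −0.015 and 0.022, and at −0.13, 0.047 and 0.055.

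In limma 0 of the 7 genes passed at 12 h, where 0.287% of all genes did, and 0 had an unadjusted p under 0.05, where 14.1% did. Under each alternative run, 0 of the 7 passed after adjustment as well. The smallest adjusted p of the main fit was 0.541, for Th. The SD of Tubb3 at 12 h lay at the 4.14th percentile of all genes, but the fit shares the spread of the other comparisons, where Tubb3 varied widely, and its 95% interval ran from −0.55 to 0.12. The Prph interval ran from −0.71 to 0.14. These data would not have resolved a fall of the size seen. Vehicle pools had Prph levels of 10.19, 10.24 and 9.78 and DHT pools 9.83, 10.00 and 9.54, so the 2 groups overlapped although each DHT pool was below its partner. Of the 12 h pools, both of pair 3 were low in Stmn2, at 10.19 each, against 11.22 to 11.72 in pairs 1 and 2. Both were low in Sox10 too, at 7.55 and 7.52 against 7.92 to 8.03, so this difference lay between pairs and left the ratios near 0. Epithelial means were −0.0067, 0.30 and 0.58 in the 3 pairs and skeletal muscle means −0.017, 0.31 and 0.62. The mean of the 7 genes was −0.12, −0.095 and −0.019. Their part was not tested.

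Between the sexes the neuronal genes varied most and in both directions. In pair 3 all 7 genes were lower in the male pool, by a mean of −0.56 or 0.679-fold, and all 14 array readings were negative. In pair 5 the mean was 0.26, or 1.20-fold, with 5 of 7 above 0. In pairs 1, 2 and 4 it was −0.11, 0.047 and −0.11. Over the 5 pairs the mean was −0.094 (SD 0.30), and without pair 3 it was 0.023, on the other side of 0.

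Stmn2 read −0.14, 0.15, −0.92, −0.12 and 0.35 in pairs 1 to 5 (mean −0.13, SD 0.48, n = 5). Prph read −0.23, −0.024, −0.91, −0.17 and 0.60 (mean −0.15, SD 0.54). Tubb3 read −0.035, 0.12, −0.61, −0.16 and 0.45 (mean −0.048, SD 0.39). In all 3, the lowest value was in pair 3 and the highest in pair 5. Th had the same extremes, at −0.15, 0.22, −0.61, 0.15 and 0.46 (mean 0.015, SD 0.41). Phox2a also had its lowest value in pair 3, at −0.18, 0.044, −0.53, −0.17 and −0.049 (mean −0.18, SD 0.22), but its value in pair 5 was not raised. Without pair 3 the mean of Stmn2 was 0.061, that of Prph 0.042, that of Tubb3 0.093, that of Th 0.17 and that of Phox2a −0.090.

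The glial genes followed this less. S100b was lower in males in 5 of 5 pairs, at −0.22, −0.18, −0.26, −0.24 and −0.050, a mean of −0.19 (SD 0.085). It was the 1 of 7 with the same sign in all pairs, and 7.98% of all genes were lower in all 5. Sox10 read 0.18, −0.0063, −0.069, −0.043 and 0.073 (mean 0.027, SD 0.10). In limma 0 of the 7 passed between the sexes, where 7.58% of all genes did. An unadjusted p under 0.05 was seen for 2, Phox2a (adjusted p = 0.208) and S100b (adjusted p = 0.252), where 18.5% of all genes had one. The 95% interval was −0.34 to −0.017 for Phox2a and −0.37 to −0.0056 for S100b. For Prph it was −0.48 to 0.18 and for Stmn2 −0.46 to 0.20, which spans a 0.725-fold to a 1.15-fold difference.

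The pool levels differed between the extreme pairs. Male pools of pairs 1 to 5 had Stmn2 levels of 10.92, 11.35, 10.34, 10.46 and 11.02, and female pools 11.06, 11.19, 11.26, 10.58 and 10.67. Male pool 3 was the lowest of the 5 male pools and female pool 3 the highest of the 5 female pools. Prph was at 9.52, 9.95, 8.97, 9.42 and 9.41 in male pools and at 9.74, 9.97, 9.88, 9.59 and 8.82 in female pools. There, male pool 3 and female pool 5 were each the lowest of their sex, and the range of the male pools lay within that of the female pools. In pair 3 the skeletal muscle markers had a mean of 1.26 with 8 of 9 above 0, and the 4 red blood cell markers 0.99 with 4 of 4 above 0. In pair 5 these means were 0.23 and −0.49, and in pair 2 the muscle mean was −0.41. Male pools ranged from 10.09 to 11.19 in mean skeletal muscle level and female pools from 9.93 to 10.50. Epithelial means were above 0 in all 5 pairs, from 0.091 to 0.49. Their part in the values of the 7 genes was not tested.

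**Figure D3:**
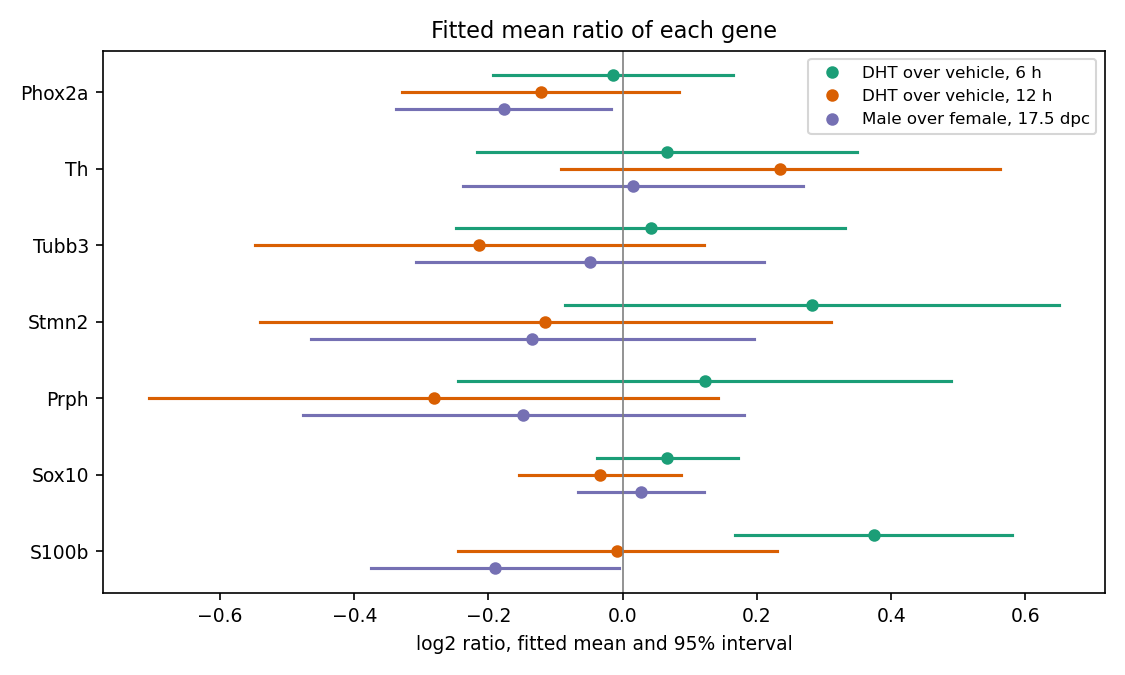
Fitted mean log2 ratio of each gene (points) with its 95% interval (lines) in the 3 comparisons, from limma with 4, 3 and 5 pairs. The S100b interval at 6 h, 0.17 to 0.58, lies above 0, and its male-female interval, −0.37 to −0.0056, lies below 0. Neither passed after adjustment over all genes.

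The comparisons were tested against each other. The S100b ratio was lower between the sexes than at 6 h, by −0.56 (95% interval −0.84 to −0.29, adjusted p = 0.018 in limma), 1 of 7 genes where 6.89% of all genes passed and 3.39% were lower. The 6 h values reached from −0.013 to 0.82 and the male-female values from −0.26 to −0.050, so the groups did not overlap. The share of all genes whose groups did not overlap was not counted. Outside pair 1, the 6 h values set DHT pools against vehicle pools that carried Y-linked RNA. The S100b difference passed in 19 of 22 alternatives. It did not pass with median centring (−0.57, adjusted p = 0.061), without the 6 h pair 2 (−0.53, adjusted p = 0.0687) or when pool levels were fitted without the pairing (adjusted p = 0.136). Between 12 h and 6 h 0 of 7 passed, where 0.113% of all genes did, with S100b at −0.38 (adjusted p = 0.249). Between the sexes and 12 h 0 of 7 passed, where 1.65% did.

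The spread between pairs was itself large. The median SD over pairs was 0.0774 for all genes at 6 h, 0.0852 at 12 h and 0.0938 between the sexes, and the 95th percentile 0.21, 0.222 and 0.301. Stmn2, S100b, Prph and Tubb3 had 6 h SDs at the 99.6th, 99.3rd, 98.8th and 98.7th percentile of all genes. Between the sexes Prph, Stmn2, Th and Tubb3 were at the 99.1st, 98.7th, 97.8th and 97.4th, and S100b was at the 43.6th. At 12 h only Th was high, at the 90.3rd percentile, while Prph was at the 35.6th and Stmn2 at the 58.5th. Expressed as the swing of the 7-gene mean, partner pools ranged from 0.962-fold to 1.41-fold at 6 h, from 0.922-fold to 0.987-fold at 12 h and from 0.679-fold to 1.20-fold between the sexes.

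The neuronal genes varied together. After the mean of each comparison was subtracted, the Pearson correlation of a gene with the mean of the other 6 over the 12 pairs was 0.982 for Tubb3, 0.982 for Stmn2, 0.941 for Prph, 0.831 for Phox2a and 0.828 for Th. It was 0.634 for S100b and 0.62 for Sox10. All genes of a pair share the same arrays, and the 2 pairs farthest from the middle, the male-female pair 3 and the 6 h pair 1, carry much weight. Without them the values were 0.936 for Stmn2, 0.928 for Tubb3, 0.904 for Prph, 0.575 for Th, 0.534 for S100b, 0.345 for Phox2a and 0.0878 for Sox10. The cytoskeletal genes thus moved together in the remaining 10 pairs too, while the Pearson values of Phox2a and Sox10 fell most. Rank correlations over all 12 pairs, which weigh extreme values less, were 0.692 for Phox2a and 0.636 for Sox10. By rank, S100b had 0.692 and Th 0.685, and the cytoskeletal genes had 0.846 to 0.881. The 21 correlations between single genes ran from 0.316 to 0.97, with a median of 0.695.

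Levels also stood apart between the sets of arrays. Prph was at 7.54 to 8.13 in the 8 pools at 6 h, at 9.54 to 10.24 in the 6 at 12 h and at 8.82 to 9.97 in the 10 at 17.5 dpc. Th ranged from 6.77 to 7.09 at 6 h, from 7.52 to 8.55 at 12 h and from 7.63 to 8.36 at 17.5 dpc. Tubb3 was at 9.92 to 10.42, 11.00 to 11.65 and 10.69 to 11.43, and Phox2a at 7.30 to 7.55, 8.17 to 8.58 and 8.17 to 8.77. In these 4 genes all 6 h pools lay below all later ones. The share of all genes whose levels separate in this way was not counted. The other 3 did not follow. Stmn2 was at 11.03 to 11.92 at 6 h, 10.19 to 11.72 at 12 h and 10.34 to 11.35 at 17.5 dpc, S100b ran from 7.96 to 8.78, from 7.82 to 8.10 and from 7.61 to 8.43, and Sox10 ran from 7.67 to 7.89, from 7.52 to 8.03 and from 7.93 to 8.22, so that its 6 h pools lay below those at 17.5 dpc and the 12 h pools overlapped both. Each set was hybridised on a day of its own, so age, exposure and array set cannot be told apart, and no test was made across them.

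Other genes of the pathway were read from lists. The list of neuronal cytoskeleton, axon and synapse genes had 28 names, of which 27 were measured. At 6 h and at 12 h 0 of 27 passed in limma, and between the sexes 0 were higher and 1 lower in males, where 3.72% of all genes were higher and 3.86% lower. That gene was Elavl2, an RNA-binding protein of neurons, at −0.29, −0.24, −1.19, −0.74 and −0.11 (mean −0.51, adjusted p = 0.0369). The call was lost without pair 3 (−0.34) or pair 4 (−0.46), and also with the mean over probes, at −0.22. The median log2 ratio of the list was 0.15 at 6 h, −0.14 at 12 h and −0.13 between the sexes, against 0.0066, 0.0023 and 0.00072 over all genes. Snap25, a synaptic vesicle fusion protein, and Nefm, the medium neurofilament, had the largest 6 h ratios, 0.37 and 0.33 (adjusted p = 0.366 and 0.567). Both were carried by pair 1, at 1.05 and 0.99, and without it the means were 0.15 and 0.11. Gap43 of the growth cone had the largest at 12 h, −0.31 (adjusted p = 0.375), followed by Nefm at −0.29, and Nefm was also at −0.29 between the sexes, or −0.060 without pair 3. By pair the list mean was 0.57, 0.079, 0.039 and −0.073 at 6 h and −0.084, 0.036, −0.63, −0.23 and 0.25 between the sexes. Its extremes fell in the same pairs as those of the 7 genes.

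Of 23 genes of transmitter synthesis and storage, 0 passed at 6 h or 12 h, and 1 was higher in males, where 3.72% of all genes were. This was Penk, which encodes the precursor of the enkephalin peptides. It read 1.20, 1.44, 0.72, 1.52 and 1.58 in the 5 male-female pairs, a mean of 1.29 (95% interval 1.03 to 1.55, adjusted p = 1.6e-05), and it passed under all 18 alternatives. Its lowest value fell in pair 3 and its highest in pair 5, the pairs of the neuronal extremes. At 12 h Penk read 0.51, 0.35 and 0.55 (mean 0.47, adjusted p = 0.186), and at 6 h 0.54, −0.065, −0.16 and −0.21. The male excess was larger than the 6 h ratio by 1.26 (adjusted p = 0.00108). Penk RNA is also made outside neurons, and its cell of origin was not tested. Vip, the neuropeptide of cholinergic pelvic neurons, was above 0 in all 4 pairs at 6 h, at 0.97, 0.62, 0.41 and 0.44 (mean 0.61, adjusted p = 0.07), as were 12.8% of all genes, and it did not pass. It passed with the deposited series matrix (adjusted p = 0.0415) and in the 2 fits of single arrays (0.00289 and 0.00349), and without pair 1 it was at 0.49 (0.388). Nos1, the neuronal nitric oxide synthase, was at 0.39 at 6 h (adjusted p = 0.38), with 0.98 in pair 1 and a mean of 0.19 without it. Sst, which encodes somatostatin, was at −0.26 at 12 h and 0.39 between the sexes (adjusted p = 0.66 and 0.21). Between the sexes its pairs read 0.52, 0.29, −0.54, 0.75 and 0.95, and without pair 3 its mean was 0.63 (adjusted p = 0.00458).

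Of 11 regulators of autonomic neuron fate, 0 passed in any comparison. Sox11, a transcription factor of immature neurons, was at −0.17 at 6 h (adjusted p = 0.124), below 0 in all 4 pairs, and passed in 3 alternatives (adjusted p = 0.0367 to 0.0473). Hand2, a basic helix-loop-helix factor of sympathetic neurons that mesenchyme also makes, was at −0.13 at 12 h and −0.14 between the sexes. The LIM homeodomain factor Isl1 was at −0.10 between the sexes (adjusted p = 0.667), and without pair 3 Hand2 was at −0.065 and Isl1 at 0.021. The mean of the list stayed within −0.091 and 0.035 in 11 pairs and was −0.25 in the male-female pair 3.

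Among Schwann cell and glial precursor genes, 21 of 22 names were measured, and 0 passed at 6 h or 12 h. Between the sexes 2 were higher and 2 lower in males, where 3.72% and 3.86% of all genes were. Mal, a proteolipid of myelin that many epithelia also make, was at −0.041, 1.44, 0.67, 0.52 and 0.23 (mean 0.57, adjusted p = 0.0436). It lost the call under 12 of 18 alternatives, among them without pair 2 (0.35), pair 3 (0.54) or pair 4 (0.58). Mbp, the myelin basic protein gene, was higher by 0.29 (adjusted p = 0.00751), and by 0.091 (adjusted p = 0.164) with the mean over its probes. Pmp22, a myelin membrane protein that fibroblasts also make, was lower in males at −0.36 (adjusted p = 0.0135), and at −0.28 without pair 4 (adjusted p = 0.0705). Cdh2, the N-cadherin of neural crest cells and mesenchyme, was lower at −0.26 (adjusted p = 0.00512) and below 0 in all 5 pairs, a call lost with median centring (adjusted p = 0.216), with the comparison fitted alone (0.0648) and without the pairing (0.854). Epithelial markers rose with them, 6 of 13 past the threshold, such as Cldn4 at 0.64 and Cdh1 at 0.54, and the collagen genes Col1a1 and Col3a1 of fibroblasts fell, at −0.67 and −0.43. Col3a1 lost its call under 9 of 18 alternatives and was at −0.26 without pair 4. Their part in the 4 calls was not tested. At 6 h Postn, a matrix protein that Schwann cell precursors and mesenchyme make, was at 0.39 and Fabp7, a fatty acid binding protein of glial precursors, at 0.34 (adjusted p = 0.34 and 0.264). Their pair 1 values were 0.88 and 0.80, and without pair 1 the means were 0.23 and 0.19. At 12 h Mal was at 0.39 and Erbb3, the neuregulin receptor of Schwann cells, at 0.24 (adjusted p = 0.418 and 0.381).

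Of 16 neurotrophic ligands and receptors, 0 passed at 6 h or 12 h, and 1 was higher and 2 were lower in males, where 3.72% and 3.86% of all genes were. Ntrk2, the receptor of brain-derived neurotrophic factor, was lower in 5 of 5 pairs, at −0.28, −0.39, −0.75, −0.30 and −0.52 (mean −0.45, adjusted p = 0.000333), and passed under all 18 alternatives. At 12 h it was at −0.15, −0.27 and −0.40 (mean −0.27, adjusted p = 0.134), and at 6 h all 4 pairs lay within −0.027 and 0.087. Artn, the artemin ligand of sympathetic axons, was higher by 0.15 (adjusted p = 0.0156), a call lost without pair 2, 3 or 4. Ntf3, which encodes neurotrophin-3, was lower at −0.12 (adjusted p = 0.0452), a call lost without pair 1, 4 or 5. Ntf3 was at −0.14 at 12 h (adjusted p = 0.169). At 6 h Erbb2, a neuregulin co-receptor that epithelium also makes, was at −0.17 (adjusted p = 0.0689; past the threshold in 3 alternatives, 0.0118 to 0.0485) and Ntf5 at −0.13 (adjusted p = 0.453).

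**Figure D4:**
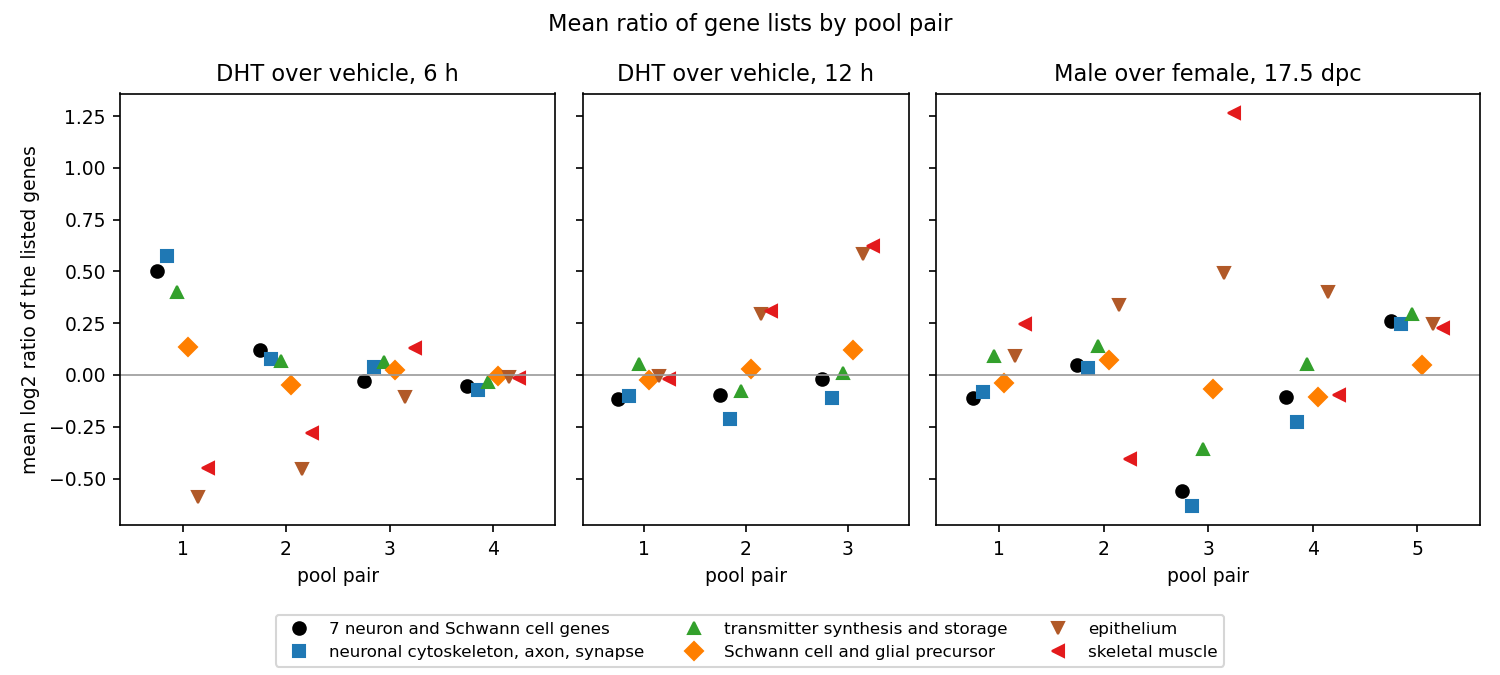
Mean log2 ratio of the 7 genes, of 3 neural lists and of epithelial and skeletal muscle markers in each pair of pools. The list of cytoskeleton, axon and synapse genes lies at 0.57 in the 6 h pair 1 and at −0.63 in the male-female pair 3, next to the 7 genes at 0.50 and −0.56.

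The genes most like the 7 over the 12 pairs were ranked by Pearson correlation with their mean, after the mean of each comparison was subtracted. The 10 leading ones were Sncg, the gamma-synuclein of peripheral neurons (r = 0.986), Chst8, a sulfotransferase (0.986), Rufy3, of growing axons (0.985), Ncald, the calcium sensor neurocalcin delta (0.981), Smpd3, a neutral sphingomyelinase (0.98), Mllt11 (0.979), Rtl8a (0.976), Dusp26, a phosphatase (0.975), the transcript AK039580 (0.975) and Scrn1 (0.975). Without the 2 extreme pairs they stayed between 0.875 and 0.958. The remaining pairs had also served to pick these genes, so this is not a separate test. Sncg read 0.92, 0.27, 0.053 and −0.036 at 6 h, −0.25, −0.25 and −0.052 at 12 h and −0.069, 0.15, −0.70, 0.12 and 0.51 between the sexes. Of 24674 genes with all 12 values, 528 or 2.14% had r over 0.8.

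By list, r over 0.8 was reached by 20 of 27 genes of the cytoskeleton, axon and synapse, of which Dpysl3 lacked a pair and had no value, by 12 of 23 genes of transmitter synthesis and storage and by 4 of 21 Schwann cell genes. It was reached by 0 of 11 regulators and 0 of 16 neurotrophic genes. Among the Schwann cell genes, Fabp7 (0.962), Ngfr (0.91) and Gfra3 (0.805) were named after their values were seen, and Gfra3 fell to 0.145 without the 2 extreme pairs. Ngfr, the low-affinity neurotrophin receptor, is made by neurons as well. Penk had r = 0.935 and Vip 0.829, or 0.644 and 0.521 without those pairs. The list means of the cytoskeleton and transmitter lists followed the 7 genes at 0.978 and 0.963, and at 0.896 and 0.815 without the 2 pairs. The chromaffin and adrenal list followed at 0.946, and 4 of its 7 genes are also on the transmitter list. Outside the nervous system, endothelial markers followed at 0.64 and fibroblast markers at 0.562, or 0.725 and 0.542 without the 2 pairs, values near those of the Schwann cell list at 0.673 and 0.543. Skeletal muscle markers had r = −0.675 and epithelial markers −0.496, but 0.0775 and −0.0614 without the 6 h pair 1 and the male-female pair 3. The Pearson opposition of both lists to the neuronal genes thus depended on those 2 pairs. By rank over all 12 pairs the values were −0.531 for muscle and −0.399 for epithelium.

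**Figure D5:**
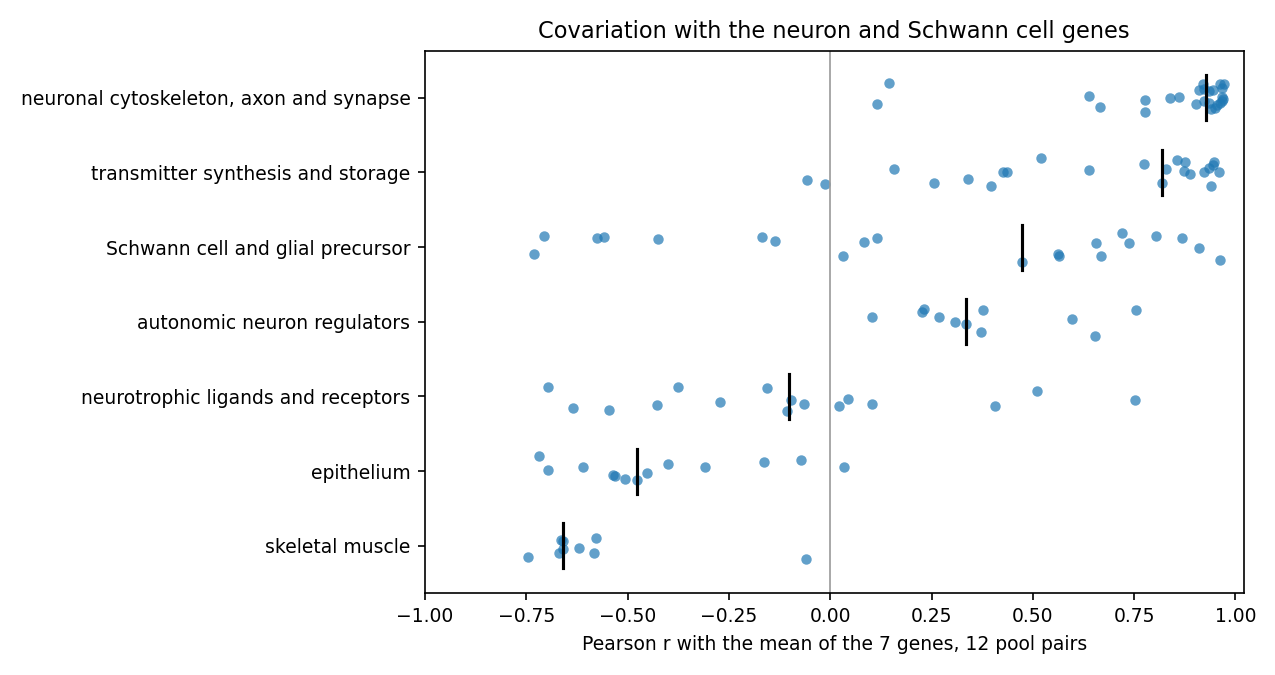
Pearson correlation of each gene's log2 ratio with the mean of the 7 genes over 12 pairs, after subtraction of comparison means, by list (points), with the list median (bars). The median lies at 0.928 for the cytoskeleton, axon and synapse list, at 0.82 for the transmitter list and at −0.659 for skeletal muscle.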

How the data were processed

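The scanner files deposited by the authors were made with Agilent Feature Extraction 7.5.1, per the file headers, and hold spot intensity in Cy3 and Cy5, local background, and the software's own log10 ratio (Cy5 over Cy3, dyes normalised). The series matrix deposited by the authors holds log2 ratios; its columns had medians of −0.0112 to 0.0108 and correlated at 0.923 to 0.988 with the ratios turned here to DHT over vehicle or male over female, on all 24 arrays, but how they were centred and filtered is not given in the sources used here.

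Mean signals and median backgrounds were corrected with normexp (offset 50) and normalised by loess in limma 3.58.1 under R 4.3.3, with control spots given no weight and outlier spots set to missing. Files were read with the R package data.table, version 1.17.8. Ratios were turned to DHT over vehicle or male over female. The 2 dye-swapped arrays of a pair share their RNA and were averaged, which gave 12 replicates, numbered by the replicate number in the sample titles. In the male-female pairs 1 and 2 the pools themselves are labelled 2 and 1. That the pools came from separate litters is not stated, so p-values measure the spread between these pools. Levels are log2 intensities after loess and Aquantile scaling. A probe was kept when well above background in either channel on at least 6 of 24 arrays (35477 of 41174 probes). The brightest probe stood for a gene, and 42 of 24716 genes lacked a value in a pair. Probes were named through RefSeq annotation by accession (21564), symbol (5365) or synonym (4595), and 9650 kept the file's name.

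A limma fit with 1 coefficient per comparison and contrasts between comparisons gave moderated two-sided tests, adjusted by Benjamini-Hochberg over all genes, threshold 0.05. The fits were tested on simulated data. Alternatives changed background correction, normalisation, filter, probe choice, the fit and the replicates. The 7 genes and all lists were chosen with earlier results of these data known. Of each list, genes past the threshold were named, up to 4, or else the 2 with the largest ratio. Of marker lists up to 2 such genes could be named. The 10 genes most correlated with the 7 were named as well. Some genes that these rules select are not reported here. Image extraction days from the headers were used as a batch in 1 alternative. The number of arrays limits the precision.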

Additional observations from a re-analysis of the deposited data

Results flagged for a closer look

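S100b was the 1 gene of the 7 whose ratio passed the threshold between comparisons. The male-female ratio was lower than the 6 h ratio by a log2 difference of −0.564 (adjusted p = 0.018 in limma). In this contrast 6.89% of all genes passed and 3.39% were lower. The S100b call was lost in 3 of 22 alternatives, at adjusted p of 0.061 to 0.136. Outside pair 1, the 6 h vehicle pools carried Y-linked RNA, so exposure to DHT and the sex of the embryos cannot be told apart there. The 6 h pairs read 0.82, 0.48, −0.013 and 0.21, and the male-female pairs −0.22, −0.18, −0.26, −0.24 and −0.050.

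In 112 groups of pair values, for single genes and list means, 4 held a pair far from the others, and chance alone gives about 1 in 20. Ntf5, which encodes neurotrophin-4, was at 0.0382 in the 6 h pair 4, above the other 3 pairs. The mean of the smooth muscle markers was −0.302 in the 6 h pair 1, the pair with the highest neuronal values. Xist was at −4.99 in the male-female pair 1, where the other 4 pairs were at −5.91 to −5.82. The mean of the markers of cartilage, a tissue that also makes S100b, was −0.0558 in the male-female pair 4, below the other pairs. In that pair 2 of the markers were above 0 and 2 below.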

How the results depend on the processing

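Of 777 values for the 7 genes under 26 settings, 6 changed their side of the threshold, all of them S100b, and none that was past it changed its sign. The mean of the 7 genes ranged from 0.0121 to 0.197 at 6 h, from −0.106 to −0.0572 at 12 h and from −0.183 to 0.0225 between the sexes with each pair left out in turn. It was 0.50 with the 6 h pair 1 only, a setting chosen after seeing the data, and with the pair number as a replicate block it was 0.223 at 6 h and −0.00745 at 12 h. With image extraction day it was −0.0399 between the sexes. Deviations of same-numbered pairs of different comparisons correlated at −0.0689 to 0.286. Pairs with different numbers were not set beside them, so whether the numbers link the comparisons was not tested.

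Counts of all genes moved more; the cause was not tested beyond what each setting changes. The main counts were 412 at 6 h, 71 at 12 h, 1873 between the sexes, 28 for 12 h minus 6 h, 1704 for male-female minus 6 h and 408 for male-female minus 12 h. With each pair left out they ranged over 13 to 235, 0 to 0, 1139 to 1822, 0 to 18, 859 to 1814 and 135 to 428, in the same order; the 6 h count was 19 without pair 1 and 13 without pair 2. Without background correction the 12 h count was 0 and the 12 h minus 6 h count 11. Median centring gave 92 at 6 h, 21 at 12 h, 74 for 12 h minus 6 h and 813 for male-female minus 6 h. It also moved the share of higher calls from 29.6% to 3.26% at 6 h, from 39.4% to 85.7% at 12 h, from 49.1% to 37% between the sexes and from 49% to 34.4% for male-female minus 12 h. The scanner's own ratio gave 25 (4% higher), 47, 0 for 12 h minus 6 h and 1108 for male-female minus 6 h. The series matrix gave 701 at 6 h and 0 at 12 h. The stricter filter gave 21 at 12 h, and the mean over probes 270 at 6 h. Comparisons fitted alone gave 8, 0 and 869. In each case of 0 in limma, 2636 to 3487 genes had an unadjusted p under 0.05. The 24 arrays with dye terms and a random pair gave 1276, 189, 550 for 12 h minus 6 h, 2727 for male-female minus 6 h and 783 for male-female minus 12 h; with image extraction day they gave 1235, 155 and 510. Without the pairing as replicate block the 6 counts were 29, 4, 923, 2, 632 and 141. With the pair number as replicate block they were 81 at 6 h, 6 at 12 h, 155 for 12 h minus 6 h and 185 for male-female minus 12 h. The 6 h pair 1 only gave 1 at 6 h, 0 for 12 h minus 6 h and 83 for male-female minus 6 h.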
